A study of Mus musculus with 6 samples.

Results

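The small RNA described here is the one that reads matching the Mir5099 entry come from, in spermatogonial stem cells of the mouse testis kept in culture, the germ cells from which sperm arise. Mir5099 is 1 of 3267 annotated small RNA genes with at least 1 read in the series. It was chosen for its very high share of the reads after NaIO4. Its reads were those of 18 to 35 nt that match the GENCODE M21 gene exactly and in sense, plus longer reads of up to 35 nt that hold its most abundant exact read. They numbered 870362 of 2604390 in the NaIO4-treated Hen1 knockout, 912600 of 10282416 in NaIO4-treated wild type and 1003913 of 11702714 in the untreated Hen1 knockout. The untreated Mili knockout held 688205 of 4808088, the MILI immunoprecipitate 1987 of 25240941 and untreated wild type 565450 of 7322408.

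Each of these 6 groups is 1 library. All cells derive, per the labels, from a 15-day-old F1 male (C57BL/6 crossed with DBA2) that carried actin-EGFP, although the strain field reads C57BL/6, and were grown on embryonic fibroblast feeders, whose RNA may be in the libraries. The knockouts (mhen1-/- and mili-/-) were made with spCas9 and guide RNAs and come from picked single colonies checked by Sanger sequencing. The NaIO4 libraries were made from total RNA of wild type and mhen1-/- cells, and the immunoprecipitate from wild type cells with the MILI antibody MABE363. The labels give spike-ins for 5 libraries and not for the immunoprecipitate. With 1 library per group the spread between cultures or clones is not known, so no test was made and every interval covers counting error only. Reads amplified by PCR and counted without molecular identifiers do not stand for independent molecules, so these intervals are a lower limit of the error.

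Hen1 (gene Henmt1) is the methyltransferase that puts a 2′-O-methyl group on the last nucleotide of piRNAs, and MILI, encoded by Piwil2, is a Piwi-family partner of piRNAs. NaIO4 oxidises the last ribose of an RNA whose 2′ and 3′ hydroxyls are both free, which keeps that RNA out of the library, while an RNA with a 2′-O-methyl group or another blocked 3′ end passes. Mammalian microRNAs normally end with both hydroxyls free and are cut from a hairpin by Drosha and Dicer, and piRNAs are made from single strands without Dicer. Ribosomal RNA of the large precursor is transcribed as 1 molecule in which an external transcribed spacer precedes 18S rRNA.

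The letters of the reads did not follow the Mir5099 gene beyond a short stretch. The gene lies on chromosome 12 from 36816205 to 36816278 on the forward strand (GRCm38), is 74 nt long and is annotated as a microRNA gene. It is shown first, with the 21 bases in capitals that the reads share with it, gene positions 45 to 65, or 36816249 to 36816269. The most abundant read, called the lead read below, follows, and then the reads that rank 2 and 3 among the locus reads and the most abundant exact match of the gene, with the letters shared with the gene in capitals.
Mir5099 gene: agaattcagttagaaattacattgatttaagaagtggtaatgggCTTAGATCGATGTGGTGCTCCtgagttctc
Lead read: tCTTAGATCGATGTGGTGCTC
Read 1 nt longer at the 5′ end: ctCTTAGATCGATGTGGTGCTC
Read 2 nt longer at the 5′ end: actCTTAGATCGATGTGGTGCTC
Most abundant exact match: TAGATCGATGTGGTGCTC

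The lead read departs from the gene at its first base, G44T, with the gene's base first, the position counted from 1 at the gene's 5′ end, and the read's base last. Of the reads long enough to show position 44, 99.9% carried T in the 5 libraries other than the immunoprecipitate, and 99.4% did so there. The gene's own G was seen in 33 reads of the NaIO4-treated Hen1 knockout, 26 of NaIO4-treated wild type, 37 of the untreated Hen1 knockout, 23 of the Mili knockout, 5 of the immunoprecipitate and 12 of untreated wild type. Reads that match the gene throughout made up 0.897% of the locus reads in the NaIO4-treated Hen1 knockout, 0.763% in NaIO4-treated wild type, 0.876% in the untreated Hen1 knockout, 0.824% in the Mili knockout, 1.91% in the immunoprecipitate and 0.925% in untreated wild type. Nearly all of these are short reads that lie inside the shared stretch. No exact read came from the loop or the other arm of the hairpin, and none was antisense, in any of the 6 libraries. The lead read was held by none of 141767 annotated transcripts, and the 21-base stretch by Mir5099 alone. No mature miR-5099 sequence was compared with them, and they are called the Mir5099-matching reads here.

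At the other end, the reads that ran past the shared stretch departed from the gene at T66G. The gene's T was carried there by 0 of 580 reads in the NaIO4-treated Hen1 knockout, 0 of 781 in NaIO4-treated wild type, 4 of 7022 in the untreated Hen1 knockout, 2 of 10024 in the Mili knockout, 0 of 220 in the immunoprecipitate and 1 of 5930 in untreated wild type. The longer reads went on instead into the first bases of Gm26917, a long non-coding RNA gene. It is annotated on chromosome 17 from 39843013 to 39846341 on the forward strand (GRCm38). A 39-nt read that bridges both is shown with the letters that are the start of its transcript in capitals. The annotated start itself follows, and then the most common read that begins at base 5, 6 or 7 of the lead read.
Bridging read: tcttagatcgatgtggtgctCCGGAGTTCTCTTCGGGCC
Gm26917 transcript start: CCGGAGTTCTCTTCGGGCCAGGGC
Read that begins inside the lead read: ATCGATGTGGTGCTCCGGAGT

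The last base of the lead read is thus the first base of the annotated transcript, and 19 bases of it were covered by reads of this kind. Bridging reads with at least 8 bases past the lead read numbered 2732 in the NaIO4-treated Hen1 knockout, 6722 in NaIO4-treated wild type, 23033 in the untreated Hen1 knockout, 26063 in the Mili knockout, 427 in the immunoprecipitate and 17881 in untreated wild type, over all read lengths. RefSeq places Rn18s-rs5, an 18S rRNA-related entry, 12 bases after the end of Gm26917, from 39846354 to 39848202 on chromosome 17. No genome sequence was used here, so the bases before the start of Gm26917 were not read, and which of the repeated ribosomal DNA copies, if any, gives the reads was not tested. On the 5′ side, 28 reads over all libraries held the lead read with the same 15 bases before it.

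The lead read was the most abundant sequence of its library in 5 of the 6 libraries. The Mir5099-matching reads made up 33.4% of the reads of 18 to 35 nt in the NaIO4-treated Hen1 knockout (exact 95% interval 33.4 to 33.5). They made up 8.88% in NaIO4-treated wild type (8.86 to 8.89), 8.58% in the untreated Hen1 knockout (8.56 to 8.59) and 14.3% in the Mili knockout (14.3 to 14.3). In untreated wild type the share was 7.72% (7.70 to 7.74). The MILI immunoprecipitate stood apart with 0.00787% (0.00753 to 0.00823), and the lead read ranked only 711 there. From high to low the order was Hen1 knockout with NaIO4, Mili knockout, NaIO4-treated wild type, untreated Hen1 knockout, untreated wild type and the immunoprecipitate. NaIO4-treated wild type, the untreated Hen1 knockout and untreated wild type lie close together, and their counting intervals do not overlap, but whether neighbours differ beyond the spread between cultures is not known with 1 library each.

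**Figure D1:**
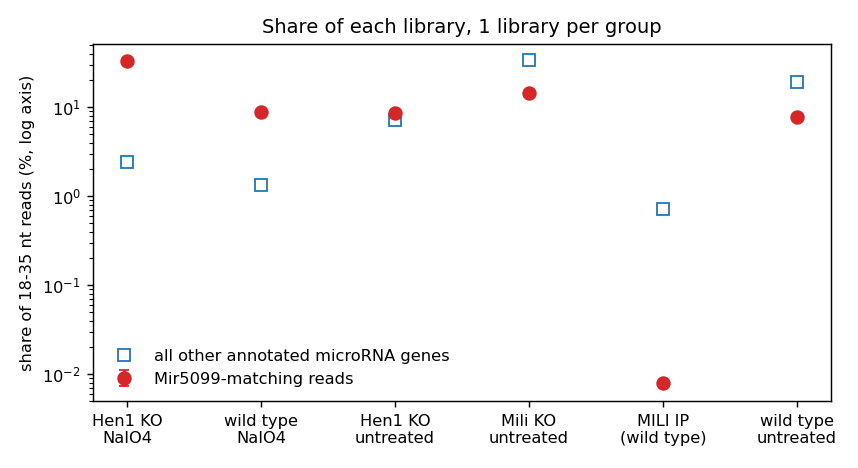
Share of the reads of 18 to 35 nt (vertical axis, %, log scale) in each of the 6 libraries (horizontal axis). Filled circles are the Mir5099-matching reads with exact 95% intervals, most smaller than the symbol, and open squares are all other annotated microRNA genes together. The circles lie at 33.4% in the NaIO4-treated Hen1 knockout, at 8.88% in NaIO4-treated wild type and at 0.00787% in the immunoprecipitate.

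The NaIO4 values chose the locus and are given as a description. In the Hen1 knockout the share was 3.90 times as high with NaIO4 as without (95% interval 3.88 to 3.91), and 21.2% of the other annotated small RNA genes were at least 2-fold higher there. In wild type the share was 1.15 times as high with NaIO4 as without (1.15 to 1.15), and 9.32% of the other genes were at least 2-fold higher. Over the 514 and 590 other genes compared, those for which the pair of libraries held at least 200 reads in sum, the median ratio was 0.475 in the Hen1 knockout and 0.203 in wild type. The ratio in the Hen1 knockout was 3.39 times that in wild type (3.37 to 3.40). Between the NaIO4 libraries themselves the share was 3.77 times as high in the Hen1 knockout as in wild type (3.75 to 3.78), where 42.3% of the other genes were at least 2-fold higher.

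A share depends on what else is in the library, and other classes of small RNA differed between these libraries too. piRNA-like reads, those of 25 to 31 nt outside the annotated classes, were 23.5% of the Hen1 knockout with NaIO4 and 59.7% of it without, against 65.7% of wild type with NaIO4 and 42.4% of it without. All other annotated microRNA genes together were 2.40% of the Hen1 knockout with NaIO4 and 7.20% without, a ratio of 0.333 (0.331 to 0.336). They were 1.34% of wild type with NaIO4 and 19.0% without, a ratio of 0.0703 (0.0699 to 0.0707). Mir741, Mir871, Mir470, Mir183 and Mir880, the 5 microRNA genes with the most reads in untreated wild type, were 3.21-fold to 16.2-fold lower with NaIO4 in the Hen1 knockout and 19.4-fold to 70.9-fold lower in wild type. Mir741, Mir871, Mir470 and Mir880 belong to an X-linked family known from the testis.

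Set against microRNAs, the Mir5099-matching RNA was thus more frequent with NaIO4 in both genotypes, and the order of the genotypes turned. There were 13.9 Mir5099-matching reads per microRNA read in the Hen1 knockout with NaIO4 and 1.19 without, a ratio of 11.7. There were 6.65 per microRNA read in wild type with NaIO4 and 0.407 without, a ratio of 16.3. On this scale the ratio in the Hen1 knockout was 0.714 times that in wild type (0.711 to 0.718), where by share it was 3.39 times. Per snRNA and snoRNA read the ratios were 3.17 in the Hen1 knockout and 2.86 in wild type, the first 1.11 times the other. Per piRNA-like read the ratio was 9.90 in the Hen1 knockout and 0.742 in wild type, so that in wild type even the direction depends on what the reads are set against. Annotated rRNA genes as a class had a larger share with NaIO4, 12.6% with and 0.491% without in the Hen1 knockout and 4.42% with and 0.863% without in wild type. Many genes of this class are annotated copies of 5S rRNA, which is not part of the large precursor. An annotated entry that overlaps Rn18s-rs5 was left out of the class. snRNA and snoRNA genes had ratios of 1.23 in the Hen1 knockout and 0.402 in wild type.

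The NaIO4 ratio varied with where a read ended, which is again a description. The reads that match the lead stretch and its continuation exactly and hold the first 15 bases of the most abundant exact match were grouped by their 3′ end, counted from the last base of the lead read. They include shorter reads that are not among the Mir5099-matching reads, and leave out those with other letters in front. The rule admits none that ends more than 3 nt before the lead end, and none that starts after the first of those 15 bases. Reads at that end made up 99.4% of them in the NaIO4-treated Hen1 knockout, 99.4% in NaIO4-treated wild type, 98.7% in the untreated Hen1 knockout, 98.1% in the Mili knockout, 88.3% in the immunoprecipitate and 98.4% in untreated wild type. A single 3′ end therefore held nearly all of the reads that this rule admits, in every library but the immunoprecipitate. Of the others, 1 further base was held by 944.9 CPM (counts per 1000000 reads of 18 to 35 nt) in the Hen1 knockout with NaIO4 and 265.9 without, against 257.4 in wild type with NaIO4 and 266.0 without.

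**Figure D2:**
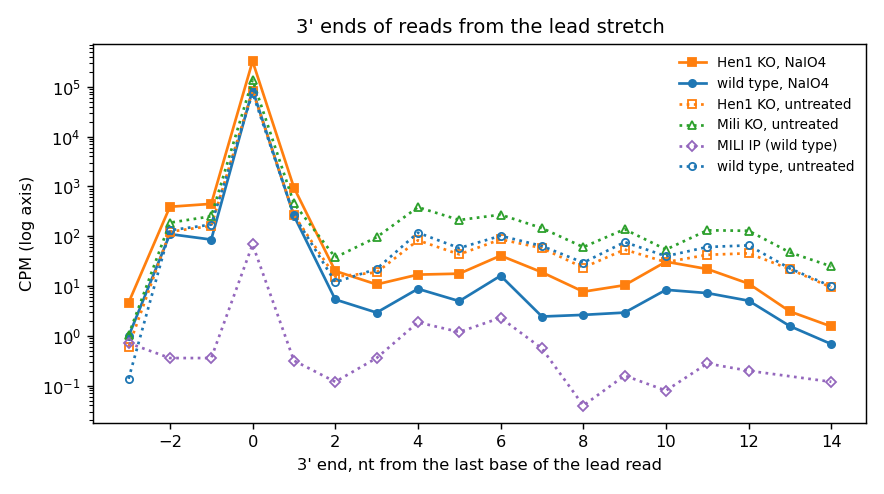
Frequency of the reads of 18 to 35 nt (vertical axis, CPM, log scale) by 3′ end (horizontal axis, nt from the last base of the lead read, negative values shorter) in the 6 libraries. Filled symbols with solid lines are NaIO4 libraries, and open symbols with dotted lines are the others. All 6 lines peak at 0, and from 4 nt on the 2 solid lines run below the untreated line of the same genotype, except at 10 nt in the Hen1 knockout, at 30.7 CPM with NaIO4 and 30.1 without.

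With NaIO4, reads at the lead end were 3.92 times as frequent in the Hen1 knockout (3.91 to 3.93) and 1.16 times in wild type (1.16 to 1.17). Reads 1 or 2 nt shorter had ratios of 2.95 (2.79 to 3.11) in the Hen1 knockout and 0.648 (0.610 to 0.688) in wild type. Reads 1 nt longer had ratios of 3.55 (3.37 to 3.75) in the Hen1 knockout and 0.968 (0.913 to 1.03) in wild type. Reads 2 or 3 nt longer had ratios of 0.901 (0.709 to 1.15) in the Hen1 knockout and 0.244 (0.191 to 0.312) in wild type, on 80 to 399 reads per library. The reads that ran on by 4 nt or more numbered 470 in the Hen1 knockout with NaIO4 and 5812 without, and 624 in wild type with NaIO4 and 4725 without. They were 2.75-fold lower with NaIO4 in the Hen1 knockout (2.51 to 3.02) and 10.6-fold lower in wild type (9.78 to 11.6). The microRNA class had ratios of 0.333 in the Hen1 knockout and 0.0703 in wild type, and these reads had 0.363 in the Hen1 knockout and 0.0940 in wild type.

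**Figure D3:**
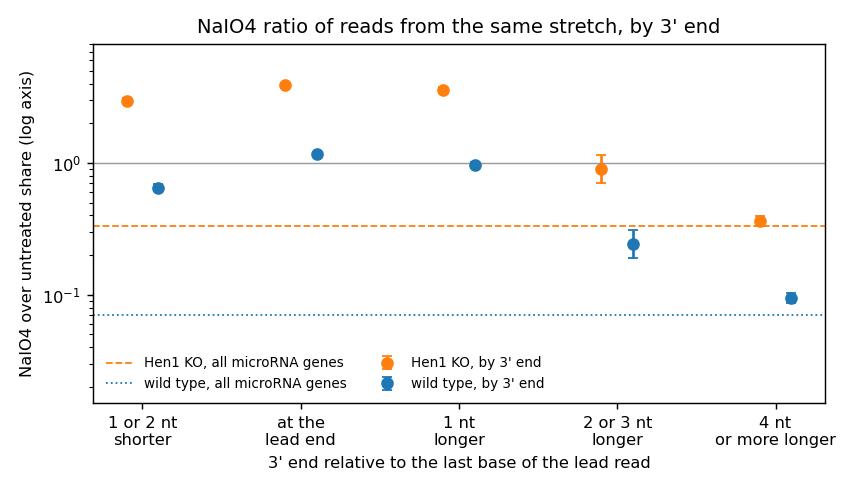
Share with NaIO4 over share without (vertical axis, log scale) for reads of the lead stretch and its continuation grouped by 3′ end (horizontal axis), in the Hen1 knockout (left of each pair) and wild type (right). Bars are 95% intervals from the counts, and the dashed and dotted lines are all other annotated microRNA genes in the Hen1 knockout and wild type. Reads at the lead end lie at 3.92 in the Hen1 knockout and 1.16 in wild type. Reads 4 nt or more longer lie at 0.363 in the Hen1 knockout and 0.0940 in wild type, near the microRNA lines at 0.333 and 0.0703.

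Reads that begin at base 5, 6 or 7 of the lead read had similarly low NaIO4 ratios. At 18 nt or more, reads with these starts run past the lead end by rule, so start and later 3′ end cannot be told apart. A few that start just before the lead read were counted with them. These reads lack the first bases of the stretch, leave out starts at bases 2 to 4 and mostly run into Gm26917. They numbered 1755 in the Hen1 knockout with NaIO4 and 19199 without, and 1882 in wild type with NaIO4 and 15790 without. They were 2.43-fold lower with NaIO4 in the Hen1 knockout (2.32 to 2.56) and 11.8-fold lower in wild type (11.2 to 12.4). The single most common of them, shown above, was counted in 740 reads of the Hen1 knockout with NaIO4 and 9411 without, and in 855 reads of wild type with NaIO4 and 8823 without. The most abundant exact match begins at base 4 and ends at the lead end. It was 0.153% of the Hen1 knockout with NaIO4 and 0.0397% without, and 0.0381% of wild type with NaIO4 and 0.0400% without. Reads 4 nt or more longer and reads that begin at base 5, 6 or 7 were thus less frequent with NaIO4 in both genotypes. Reads at the lead end as a group were more frequent in both. By contrast, reads of Gm26917 itself, 1966 in the Hen1 knockout with NaIO4 and 2835 without, were 3.12 times as frequent with NaIO4 (2.94 to 3.30). In wild type, 776 reads with NaIO4 and 1090 without gave a ratio of 0.507 (0.462 to 0.556).

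Without NaIO4, the Mir5099-matching reads took 1.11 times as large a share in the Hen1 knockout as in wild type (1.11 to 1.11), where 0.893% of 672 other genes were at least 2-fold higher and their median ratio was 0.529. Only 40 of those genes had a higher ratio, and 18 of the 325 microRNA genes among them. The microRNA class itself was 2.64-fold lower in the untreated Hen1 knockout, and piRNA-like reads were 1.41 times as frequent. Per microRNA read the locus was 2.93 times as frequent, and per piRNA-like read it was 0.789 times as frequent, so the direction of this difference changes with the denominator.

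In the Mili knockout the share was 1.85 times that of untreated wild type (1.85 to 1.86), against 32.8% of 635 other genes at least 2-fold higher and a median ratio of 1.77. The microRNA class was 1.78 times as frequent there and snRNA and snoRNA genes 1.68 times, and piRNA-like reads were 13.1% of the Mili knockout and 42.4% of wild type. Per microRNA read, the locus was at 1.04 times the wild type level (1.04 to 1.05). Reads 4 nt or more longer were 2.47 times as frequent in the Mili knockout (2.38 to 2.56), and reads at the lead end 1.84 times (1.84 to 1.85).

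The immunoprecipitate held 1133 lead reads, against 375207 in untreated wild type. The share of all Mir5099-matching reads was 981-fold lower in the immunoprecipitate than in untreated wild type (939 to 1025), and 76.4% of 624 other annotated genes were at least 2-fold lower. The median ratio of those genes was 0.0619. None of the 298 microRNA genes among them had as low a ratio, and the microRNA class as a whole was 26.1-fold lower. The one gene with a lower ratio was Gm25506, a snoRNA gene with 0 reads in the immunoprecipitate and 207 in wild type. Per microRNA read the locus was 37.5-fold lower. The immunoprecipitate is also the library without labelled spike-ins, and the part of this in the difference was not tested.

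**Figure D4:**
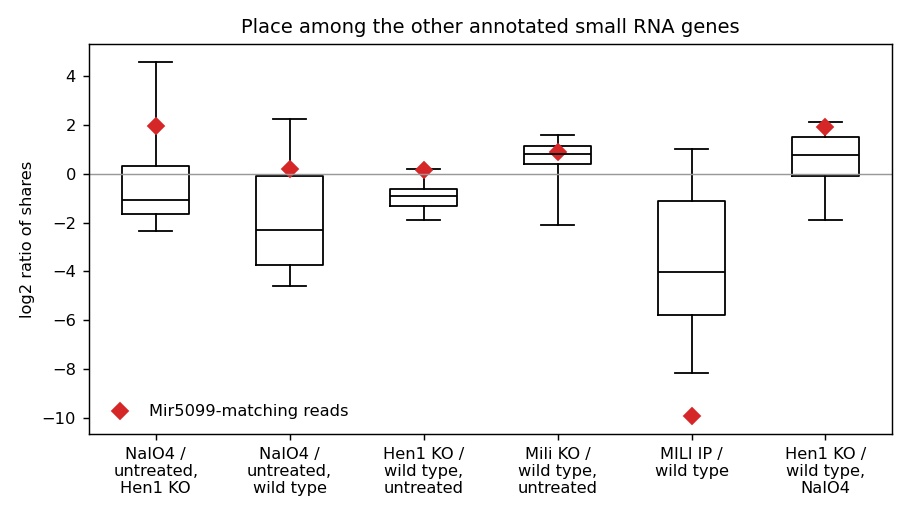
Log2 ratio of shares (vertical axis) in the 6 comparisons (horizontal axis). Boxes show the other annotated small RNA genes of at least 200 reads over the pair of libraries (line, median; box, quartiles; whiskers, 5th to 95th percentile), and diamonds the Mir5099-matching reads. The diamond lies below the lower whisker in the comparison of the immunoprecipitate with wild type and close to the median in that of the Mili knockout.

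The few reads left in the immunoprecipitate had another shape. Reads 4 nt or more longer were 8.86% of the stretch's reads there (7.64 to 10.2, 173 reads) and 0.848% in untreated wild type (0.824 to 0.872). Those reads were 94.1-fold lower in the immunoprecipitate (80.9 to 110), where reads at the lead end were 1097-fold lower (1046 to 1150). The reads that begin at base 5, 6 or 7 of the lead read were 82.3-fold lower (76.2 to 89.0). The 5 sequences with the highest counts above the lead read in the immunoprecipitate had 147404 to 266860 reads each and lengths of 22, 28 or 29 nt. In no other library did a sequence exceed the lead read.

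Among the locus reads the 5′ end was less uniform than the 3′ end, which is partly set by the rule that chose them. A read that holds the most abundant exact match cannot end before the lead end, while its start ahead of that match is free. The lead read's own start held 73.1% of the locus reads in the NaIO4-treated Hen1 knockout, 66.9% in NaIO4-treated wild type, 74.9% in the untreated Hen1 knockout, 67.8% in the Mili knockout, 65.1% in the immunoprecipitate and 67.3% in untreated wild type. A start 1 nt earlier held 22.3% in the NaIO4-treated Hen1 knockout, 28.4% in NaIO4-treated wild type, 20.5% in the untreated Hen1 knockout, 27.0% in the Mili knockout, 27.9% in the immunoprecipitate and 27.5% in untreated wild type. Both Hen1 knockout libraries had more reads at the lead start and fewer 1 nt before it than the other 4. A start 2 nt earlier held 1.53% to 2.57% in the 6 libraries. The 21-nt length accordingly held 72.9% in the NaIO4-treated Hen1 knockout, 66.7% in NaIO4-treated wild type, 74.3% in the untreated Hen1 knockout, 66.8% in the Mili knockout, 57.7% in the immunoprecipitate and 66.4% in untreated wild type.

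**Figure D5:**
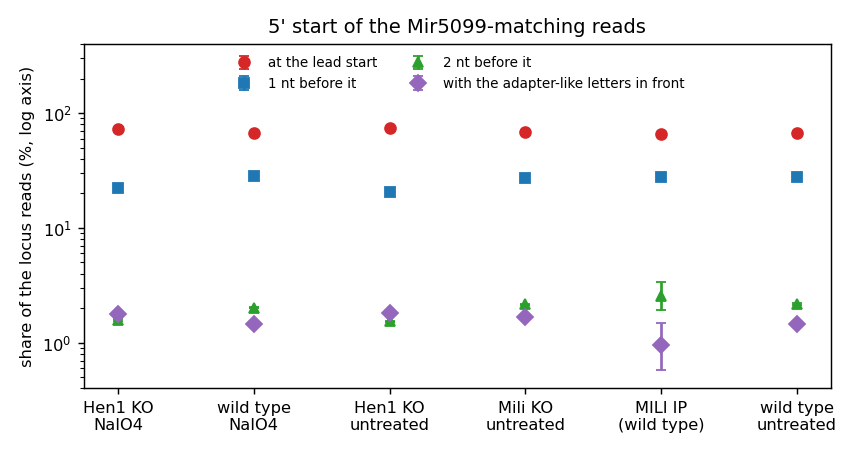
Share of the Mir5099-matching reads (vertical axis, %, log scale) by 5′ start in the 6 libraries (horizontal axis), with exact 95% intervals. The lead start lies at 73.1% and 74.9% in the Hen1 knockout libraries and at 65.1% to 67.8% in the others, and the start 1 nt before it at 22.3% and 20.5% in the Hen1 knockout libraries and 27.0% to 28.4% in the others.

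A minor group of reads reached the length of piRNAs, 25 to 31 nt. They were 1.76% of the locus reads in the NaIO4-treated Hen1 knockout, 1.48% in NaIO4-treated wild type, 2.28% in the untreated Hen1 knockout, 2.71% in the Mili knockout, 10.1% in the immunoprecipitate and 2.15% in untreated wild type. Most of them carried letters in front of the lead read that are the end of a 19-base run found before other small RNAs in these libraries too. The most abundant of these reads, which ranks 5 among all locus reads, is shown with those letters in capitals.
Read with the adapter-like letters in front: GACGATCtcttagatcgatgtggtgctc

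Of the reads of 25 to 31 nt, 95.3% began with such letters in the NaIO4-treated Hen1 knockout, 93.7% in NaIO4-treated wild type, 76.5% in the untreated Hen1 knockout, 58.0% in the Mili knockout, 16 of 200 in the immunoprecipitate and 64.4% in untreated wild type. The letters stood before 2.03% of the lead reads in the NaIO4-treated Hen1 knockout, 1.68% in NaIO4-treated wild type, 2.11% in the untreated Hen1 knockout, 1.94% in the Mili knockout, 1.05% in the immunoprecipitate and 1.71% in untreated wild type. Before the main reads of Mir741, Mir871, Mir470, Mir880 and Mir26a they stood in 0.168% to 0.576% of reads in untreated wild type. In the NaIO4-treated Hen1 knockout those 5 microRNAs ranged more widely, up to 1.11% for Mir470 and 2.59% for Mir880, the last above the lead read but on 9 such reads (1.19 to 4.87). For most of these reads outside the immunoprecipitate, the length of 25 to 31 nt thus included letters that this stretch does not hold.

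Tails, counted as up to 3 bases that follow at least 15 bases of the stretch and do not continue the gene, were found on 0.215% of reads in the NaIO4-treated Hen1 knockout, 0.193% in NaIO4-treated wild type, 0.381% in the untreated Hen1 knockout, 0.565% in the Mili knockout, 3.31% in the immunoprecipitate (40 of 1209) and 0.448% in untreated wild type. Set against the continuation into Gm26917, they were 0.206%, 0.177%, 0.323%, 0.422%, 1.81% and 0.408% in the same order of libraries. By this rule a changed base among the last 3 of the lead read also counts as a tail, so tails and 1-base variants overlap. Lead reads with A or C for T at base 20 numbered 449 and 429 in the NaIO4-treated Hen1 knockout, against 1376 tailed reads. In untreated wild type they numbered 257 and 246, against 1701. Addition of U is known on small RNAs that lack the 2′-O-methyl group. Reads with only T added after the lead end numbered 23 in the NaIO4-treated Hen1 knockout, 10 in NaIO4-treated wild type, 31 in the untreated Hen1 knockout, 21 in the Mili knockout, 0 of 1209 in the immunoprecipitate (exact upper limit 0.305%) and 24 in untreated wild type. They were 0.00412% of the reads in the untreated Hen1 knockout (0.00280 to 0.00585) and 0.00632% in untreated wild type (0.00405 to 0.00941), intervals that overlap.

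Reads that differ from the lead read by 1 base made up 1.44% in the NaIO4-treated Hen1 knockout, 1.25% in NaIO4-treated wild type, 1.29% in the untreated Hen1 knockout, 1.22% in the Mili knockout, 1.82% in the immunoprecipitate (21 reads) and 1.26% in untreated wild type. In untreated wild type the main reads of other microRNAs had 1.13% (Mir880), 1.34% (Mir741), 1.87% (Mir26a), 3.23% (Mir470) and 5.67% (Mir871). The most frequent change was T17G in 5 libraries, with positions counted from 1 at the 5′ end of the lead read and its base first, at 0.117% to 0.205%.

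Among 486 other annotated small RNA genes with at least 1000 reads over the 6 libraries, none followed the same profile closely. Profiles were log2(CPM + 1), each centred on its own mean. The closest were Snord42a, with a largest difference of 1.86 log2 units in any library (Pearson's r = 0.99), Gm24148 (2.03, r = 0.97), mmu-mir-3535 (2.05, r = 0.97), Gm23301 (2.25, r = 0.99) and Gm26202 (2.29, r = 0.98). Snord42a is a C/D box snoRNA, Gm24148, Gm23301 and Gm26202 are annotated as snoRNA genes, and mmu-mir-3535 shares its reads with Gm24148. The 6 points share their libraries and totals, and the immunoprecipitate lies far below the rest for each of these genes, so r describes mainly that difference.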

How the data were processed

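Small RNA libraries were made from total RNA or MILI-bound RNA with the Illumina protocol and sequenced on a HiSeq2500, per the labels' protocols. The deposited files hold raw read counts per distinct sequence, which the authors made by collapsing identical reads. Whole numbers with unequal totals show that no scaling was applied. Per the submitters' processing notes, Bowtie (no version) and mm10 were used, and adapter trimming is not given in the sources used here. Total reads per library ran from 2833286 to 26292082, with lengths of 17 to 41 nt.

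Reads of 18 to 35 nt were matched exactly, by string comparison, to GENCODE M21 transcripts (GRCm38), and shared between genes where several hold them. The annotated small RNA genes leave out an entry that overlaps Rn18s-rs5. The locus reads, their ends, tails and 1-base variants were counted from the sequences. Shares have exact (Clopper-Pearson) 95% intervals, and ratios have 95% intervals from the counts on the log scale. For other genes 0.5 read was added to each count, and a 2-fold limit was used. Genes that share reads, such as copies of 5S rRNA, were each counted in the percentages and medians of other genes. No test was made, since each group has 1 library. Mir5099 was chosen, and the lists fixed, with earlier results of these data known. Named besides Mir5099, by rule, are its 5 most abundant sequences, its ends with at least 5% of reads, the 5 most similar genes, the 5 most abundant microRNA genes in untreated wild type and sequences that outrank the lead read. Gm26917, Rn18s-rs5 and Gm25506 were named after their values were seen, as was Mir26a, which has the fifth most abundant microRNA read used for the adapter-like letters. The alternatives tried were other denominators, size factors, read filters and counting rules. Counting was checked on simulated data. Sequences were taken from the deposited files and GENCODE M21. The software was matplotlib 3.10.9, scipy 1.17.1, pandas 2.3.3 and numpy 2.4.6 under Python 3.11.15.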

Additional observations from a re-analysis of the deposited data

How the results depend on the processing

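Of the recalculated values, 32 moved by less than their counting interval, 120 moved by more and 4 turned direction. The 4 are the ratio of the NaIO4 ratios per microRNA read (0.714), the NaIO4 ratio in wild type per piRNA-like read (0.742) and for exact matches of the gene alone (0.948), and the untreated Hen1 knockout per piRNA-like read (0.789). The cause of these turns was not tested. The excess in the Hen1 knockout with NaIO4 over its untreated library kept its direction under every alternative run, and so did the low share in the immunoprecipitate and the higher share in the Mili knockout. Per microRNA read of other genes, the ratios were 11.7 for NaIO4 in the Hen1 knockout, 16.3 for NaIO4 in wild type, 0.714 for the ratio of the NaIO4 ratios, 2.09 between the NaIO4 libraries, 2.93 for the untreated Hen1 knockout, 1.04 for the Mili knockout and 0.0266 for the immunoprecipitate. Per piRNA-like read they were 9.90 for NaIO4 in the Hen1 knockout, 0.742 for NaIO4 in wild type, 13.3 for the ratio of the NaIO4 ratios, 10.5 between the NaIO4 libraries, 0.789 for the untreated Hen1 knockout, 6.01 for the Mili knockout and 0.000584 for the immunoprecipitate. Per snRNA and snoRNA read they were 3.17 for NaIO4 in the Hen1 knockout, 2.86 for NaIO4 in wild type, 1.11 for the ratio of the NaIO4 ratios, 2.59 between the NaIO4 libraries, 2.33 for the untreated Hen1 knockout, 1.11 for the Mili knockout and 0.00508 for the immunoprecipitate. With median-of-ratios size factors over 127 genes they were 3.22 for NaIO4 in the Hen1 knockout, 2.89 for NaIO4 in wild type, 1.11 for the ratio of the NaIO4 ratios, 2.74 between the NaIO4 libraries, 2.46 for the untreated Hen1 knockout, 1.36 for the Mili knockout and 0.0103 for the immunoprecipitate. Over reads of all lengths they were 3.76 for NaIO4 in the Hen1 knockout, 1.19 for NaIO4 in wild type, 3.17 for the ratio of the NaIO4 ratios, 3.62 between the NaIO4 libraries, 1.14 for the untreated Hen1 knockout, 1.81 for the Mili knockout and 0.00106 for the immunoprecipitate. Without the 10 most abundant other sequences they were 4.20 for NaIO4 in the Hen1 knockout, 1.09 for NaIO4 in wild type, 3.83 for the ratio of the NaIO4 ratios, 4.07 between the NaIO4 libraries, 1.06 for the untreated Hen1 knockout, 2.00 for the Mili knockout and 0.000971 for the immunoprecipitate. Per read from elsewhere they were 5.35 for NaIO4 in the Hen1 knockout, 1.16 for NaIO4 in wild type, 4.60 for the ratio of the NaIO4 ratios, 5.15 between the NaIO4 libraries, 1.12 for the untreated Hen1 knockout, 2.00 for the Mili knockout and 0.000941 for the immunoprecipitate. For exact matches of the gene alone they were 3.99 for NaIO4 in the Hen1 knockout, 0.948 for NaIO4 in wild type, 4.21 for the ratio of the NaIO4 ratios, 4.43 between the NaIO4 libraries, 1.05 for the untreated Hen1 knockout, 1.65 for the Mili knockout and 0.00211 for the immunoprecipitate. For the lead read alone they were 3.83 for NaIO4 in the Hen1 knockout, 1.15 for NaIO4 in wild type, 3.32 for the ratio of the NaIO4 ratios, 4.12 between the NaIO4 libraries, 1.24 for the untreated Hen1 knockout, 1.86 for the Mili knockout and 0.000876 for the immunoprecipitate. With reads 1 substitution from the gene added, they were 3.83 for NaIO4 in the Hen1 knockout, 1.12 for NaIO4 in wild type, 3.42 for the ratio of the NaIO4 ratios, 3.77 between the NaIO4 libraries, 1.10 for the untreated Hen1 knockout, 1.86 for the Mili knockout and 0.00133 for the immunoprecipitate. Over sequences with at least 10 reads they were 2.85 for NaIO4 in the Hen1 knockout, 1.39 for NaIO4 in wild type, 2.05 for the ratio of the NaIO4 ratios, 2.79 between the NaIO4 libraries, 1.36 for the untreated Hen1 knockout, 1.34 for the Mili knockout and 0.00119 for the immunoprecipitate. Adding reads that hold the first 15 nt of the most abundant exact match moved none of the 7 ratios by more than its counting interval.

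With each distinct sequence counted once, the most common 3′ end held 77.2% in the NaIO4-treated Hen1 knockout, 72.6% in NaIO4-treated wild type, 54.7% in the untreated Hen1 knockout, 50.0% in the Mili knockout, 29.6% in the immunoprecipitate and 47.3% in untreated wild type. The most common 5′ end then held 8.21% in the NaIO4-treated Hen1 knockout, 8.43% in NaIO4-treated wild type, 19.2% in the untreated Hen1 knockout, 20.4% in the Mili knockout, 30.9% in the immunoprecipitate and 19.8% in untreated wild type. The most common length then held 4.62% in the NaIO4-treated Hen1 knockout, 4.52% in NaIO4-treated wild type, 3.13% in the untreated Hen1 knockout, 2.80% in the Mili knockout, 8.64% in the immunoprecipitate and 3.58% in untreated wild type, and the lead read was 0.256% in the NaIO4-treated Hen1 knockout, 0.301% in NaIO4-treated wild type, 0.184% in the untreated Hen1 knockout, 0.2% in the Mili knockout, 1.23% in the immunoprecipitate and 0.239% in untreated wild type of the sequences. Tails were then on 88.1% in the NaIO4-treated Hen1 knockout, 86.5% in NaIO4-treated wild type, 88.5% in the untreated Hen1 knockout, 88.9% in the Mili knockout, 50.0% in the immunoprecipitate and 89.5% in untreated wild type. These shares rest on few sequences, 37 of 42 in the NaIO4-treated Hen1 knockout and 5 of 10 in the immunoprecipitate. They are high by the way of counting, since each different tail or changed base near the end makes a further sequence. Tails of 1 nt alone were on 0.0306% in the NaIO4-treated Hen1 knockout, 0.0260% in NaIO4-treated wild type, 0.0793% in the untreated Hen1 knockout, 0.0688% in the Mili knockout, 0.341% in the immunoprecipitate and 0.0827% in untreated wild type. Tails set against the continuation into Gm26917, a choice made after seeing the data, were on 0.206% in the NaIO4-treated Hen1 knockout, 0.177% in NaIO4-treated wild type, 0.323% in the untreated Hen1 knockout, 0.422% in the Mili knockout, 1.81% in the immunoprecipitate and 0.408% in untreated wild type. Over sequences with at least 10 reads the most common 3′ end held 99.7% in the NaIO4-treated Hen1 knockout, 99.6% in NaIO4-treated wild type, 99.0% in the untreated Hen1 knockout, 98.3% in the Mili knockout, 92.7% in the immunoprecipitate and 98.7% in untreated wild type, and in the immunoprecipitate the most common 5′ end held 67.5%, and both the 21-nt length and the lead read 61.5%.

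No paired analysis was possible because each group has 1 library, and no library could be left out for the same reason. Low counts limit chiefly the values of the immunoprecipitate, with 1987 locus reads in the deepest library, and those of reads 2 or 3 nt longer, with 12 to 637 reads a library. The share that a count of 0 allows is at most 0.000115% in the shallowest library, at 3 reads.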
